A study of Homo sapiens with 4 samples.

Results

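RNA was sequenced from A375, an established human melanoma cell line, and one library of a p53 knockout of that line, knockout library 2 (knockout 2), was set against the 2 libraries of the parental line. The parental pair is labelled parental p53 wild type, and the knockout was made with CRISPR-Cas9, a nuclease that a guide RNA directs to a chosen site. All libraries came from cells grown in DMEM with no treatment stated, and all were poly(A)-selected. A second, knockout library 8 (knockout 8), served only as a check of which differences recur. The labels do not say whether the 2 knockout libraries came from 1 clone or from several, nor whether the parental libraries came from separate cultures. Each value is the deposited normalized count, with no correction for gene length, so only the libraries of a gene are compared. Of 26484 genes in the table, 12266 (46.3%) had a mean of at least 100 over the parental pair and knockout library 2, and these are described here. Differences are log2(value + 1) in knockout library 2 minus the mean of log2(value + 1) in the parental pair, so that 1 unit is a 2-fold difference.

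The protein p53 is a transcription factor that is stabilised after DNA damage and other stress and switches on genes for cell cycle arrest, DNA repair and cell death. Among the genes it activates are CDKN1A, an inhibitor of cyclin-dependent kinases, and MDM2, the ubiquitin ligase that marks p53 itself for destruction. In melanoma the p53 gene is often intact, while the MAP kinase pathway is commonly switched on by a BRAF mutation, as in A375. Melanoma cells are also known to move between a pigmented, melanocytic state and an undifferentiated state rich in matrix and inflammatory genes.

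With 1 knockout library in the comparison there is no replicate of it, so sizes are given without p-values, and the difference between the 2 parental libraries is the reference for noise. A gene was counted as higher or lower where its difference was at least 1 in size and knockout library 2 lay outside both parental values by more than those differed from each other. On that rule 311 genes (2.54%) were higher and 239 (1.95%) were lower. Between the parental libraries themselves 0 genes (0%) were at least 2-fold higher in parental 2 and 5 (0.0408%) at least 2-fold lower, namely CA9, ANGPTL4, MIR210HG, BAIAP3 and SH3D21. The median size of difference was 0.18 for knockout library 2 and 0.08 between the parental libraries, and the 95th percentiles were 0.95 and 0.28. Differences of at least 4-fold numbered 76 upward and 53 downward, and those of at least 8-fold 26 and 20. Over all genes described, knockout library 2 lay above both parental values in 5246 (42.8%) and below both in 5447 (44.4%), so lying outside a pair of libraries was common and is no mark of a large change. Total reads were 29230554 and 36331894 for the parental pair, 30334054 for knockout 2 and 32160978 for knockout 8, and the median counting standard error of a difference was 0.05. The mean of 100 includes knockout library 2, so 64 of the genes counted as higher had both parental values under 100 and 58 of those counted as lower were under 100 in the knockout. At the edge of that filter lay ANXA9 with a mean of 100.005 just inside and HIST1H4C with 99.77 just outside.

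**Figure D1:**
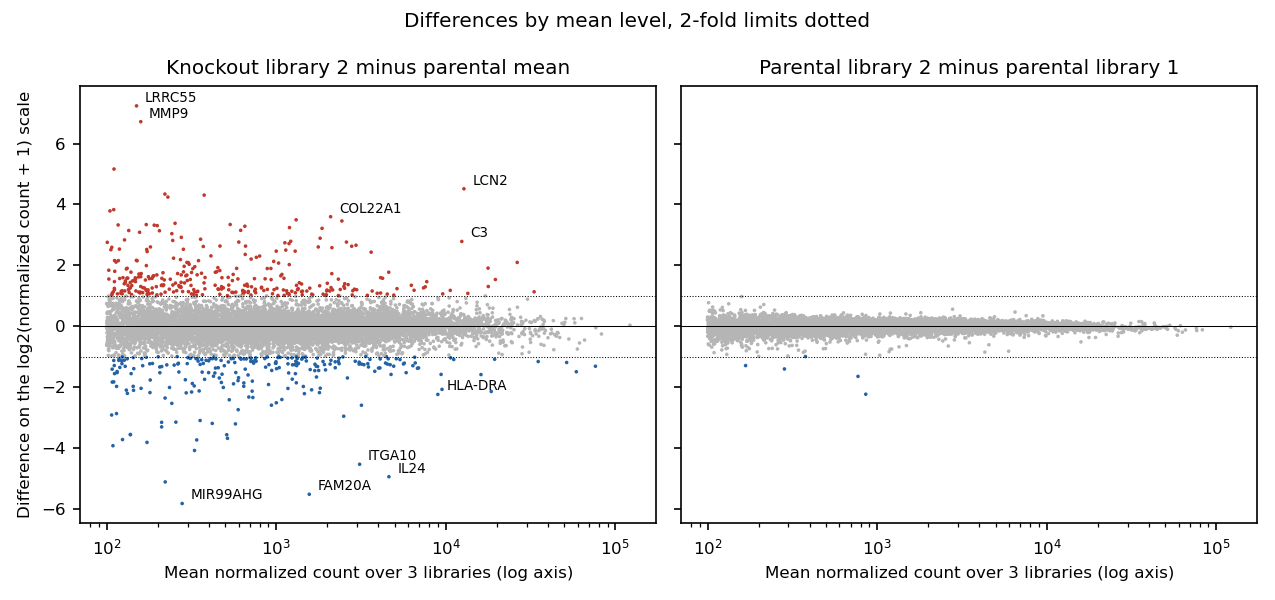
Difference of each of the 12266 genes (vertical axis, log2 scale) against its mean normalized count over the parental pair and knockout library 2 (horizontal log axis), for knockout library 2 minus the parental mean (left) and parental 2 minus parental 1 (right). Points at least 1 above 0 are red and at least 1 below are blue; LRRC55 lies highest at 7.24 and MIR99AHG lowest at -5.83 on the left, while 5 genes pass 2-fold on the right.

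Melanocytic identity was checked first. SOX10, the neural crest transcription factor that melanoma cells depend on, read 30033 and 29587 in the parental pair, 28125 in knockout 2 and 25662 in knockout 8. The melanosome genes MLANA and TYR had 0 reads in all 4 libraries, which allows up to 3 reads each, so the label of melanoma rests on SOX10, S100B, ERBB3 and PAX3 and not on pigment genes. MITF, the regulator of pigment genes, read 1645 and 1562 against 849 in knockout 2, a difference of -0.92 that did not reach 2-fold. Of 18 pigmentation genes past the filter only OCA2 was counted, as higher (5.56%, beside 2.54% of all genes). It read 83.3 and 93.0 against 224 (difference 1.34) and passed the filter only through knockout 2. Of the 18 genes 13 lay below both parental values and 5 above both, beside 44.4% and 42.8% of all genes. The list's median was -0.23 in knockout 2, -0.02 in knockout 8 and -0.03 within the parental pair. Markers of cells that a culture should lack were mostly near 0: 3 of 12 fibroblast, 4 of 16 epithelial, 2 of 16 blood and 2 of 10 endothelial markers passed the filter. CDH1, CD3G, MS4A1 and HBB had 0 reads in every library, and COL3A1 had at most 1.10 normalized counts in any. The summed level of the fibroblast list was 1590 and 1538 in the parental pair and 2668 in knockout 2, and that of the endothelial list 549, 679 and 1218, each mainly through single receptor genes, PDGFRA and TIE1 with KDR. The blood list summed to 1816, 1582 and 2498, nearly all of it CD68, a lysosomal protein, and the epithelial list to 8569, 8457 and 7996, mainly the keratin KRT18. The part of such cells in any difference was not tested. As RNA came from whole cultures, a change in the share of cells that express a gene and a change in RNA per cell cannot be told apart.

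Genes for secreted and surface proteins were among the furthest upward, beside genes of other kinds such as PARVG, EXOC3L2 and PRDM1. LCN2, which encodes the iron-siderophore carrier lipocalin 2, combined a large fold with many reads in every library. It read 1531 and 1563 in the parental pair against 35313 in knockout 2, 22.8 times as much (exact 95% binomial interval 21.987 to 23.7, counting error only), and 3300.1 in knockout 8. The gene lies on chromosome 9 from 128149071 to 128153455 (GRCh38). LRRC55, an auxiliary subunit of large-conductance potassium channels, had 2 reads in each parental library and 424 in knockout 2. Its normalized counts were 2.19, 1.75 and 446, a ratio of 229 whose interval ran from 88.8 to 844 because of the few parental reads, and 8.79 in knockout 8. MMP9, a secreted gelatinase, went from 2.19 and 5.26 to 469, with 27.3 in knockout 8. Both MMP9 and LRRC55 were thus near the counting floor in the parental line and clearly measured in knockout 2.

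PTGS2, the inducible cyclooxygenase of prostaglandin synthesis, read 667 and 475 in the parental pair and 6179.7 in knockout 2, a difference of 3.46 with a counting standard error of 0.05. PTGES, the prostaglandin E synthase that acts after cyclooxygenase, differed the other way, from 2186 and 2159.5 to 508 (difference -2.09). The cyclic AMP phosphodiesterase PDE4B went from 312 and 279.8 to 3339. COL22A1, a collagen of tissue junctions, went from 486 and 408 to 5388, and its value in knockout 8 was 675. Growth factors and proteases stood among the other large differences. AREG, the EGF receptor ligand amphiregulin, read 123 and 141 against 1342, and PDGFA, a ligand of the PDGF receptors, 196 and 214 against 1395. PAPPA, a protease that cleaves IGF-binding proteins, read 195 and 141 against 1624. ADAMTS4, a protease of cartilage proteoglycan, read 45.0 and 54.4 against 497. In each of these 4 genes knockout 2 stood above both parental values by far more than these differed, although parental 2 differed from parental 1 by -0.46 for PAPPA. IGFBP3, which binds insulin-like growth factors, read 14150.5 and 11239.8 against 53783, a difference of 2.09. TFPI2, an inhibitor of serine proteases in the matrix, read 1376 and 1576 against 7939, and IGFBP7, a secreted binding protein, 539 and 493 against 2849. PTHLH, the hormone-related peptide that tumours release in hypercalcaemia, read 47.1 and 41.2 against 381, and the lymphocyte receptor gene IL7R 49.3 and 64.0 against 501. The last 2 were also at least 2-fold higher in knockout 8, at 129.9 and 199. PTGES, PDGFA, PAPPA, ADAMTS4, TFPI2, IGFBP7, PTHLH and IL7R were named after their values were seen.

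Downward, the furthest coding gene was FAM20A, a pseudokinase that assists the secretory kinase FAM20C. It read 2443 and 2209 in the parental pair, 49.5 in knockout 2 and 575 in knockout 8, so that the parental level was 46.8 times that of knockout 2 (interval 35.1 to 63.7). The gene lies on chromosome 17 from 68535113 to 68601389 and overlaps PRKAR1A on the opposite strand. MIR99AHG, a non-coding RNA whose introns hold the microRNAs miR-99a, let-7c and miR-125b-2, read 432 and 398 against 6.31, which was 6 reads. IL24, a cytokine of the IL-10 family first found in differentiating melanoma cells, went from 6183 and 7465 to 219. ITGA10, a collagen-binding integrin subunit, went from 4825 and 4294 to 195. Both IL24 and ITGA10 were also lower in knockout 8, at 3225 and 1674, a smaller distance from the parental pair. ALK, a receptor tyrosine kinase, read 783 and 884 against 123 in knockout 2 and 699 in knockout 8. CEMIP, which takes part in hyaluronan breakdown, read 24700.3 and 25297 in the parental pair against 5639.8 in knockout 2. The 2 genes were near the parental level in knockout 8, with 29827 for CEMIP. LOXL4, a lysyl oxidase of the matrix, read 82878 and 67394 against 26427, and the protease inhibitor A2M 21454 and 20069 against 6883. GLDC, the glycine decarboxylase of mitochondria, read 1306 and 1293 against 214, and NOX4, an oxidase that makes hydrogen peroxide, 1009 and 935 against 220.0. SOCS2, a feedback inhibitor of cytokine receptors, went from 1316 and 1449 to 239.9. Its antisense neighbour SOCS2-AS1 went from 161 and 156 to 9.47. CEMIP, LOXL4, A2M, GLDC, NOX4 and SOCS2 were named after their values were seen. SOCS2 and SOCS2-AS1 overlap and the strand setting of the counting is not known, so their reads may not be independent.

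A further 3 genes among the 15 furthest downward share one locus on chromosome 11. HBE1, embryonic epsilon globin, read 795 and 696 against 56.8, OR51B5 741 and 731 against 61.0, and OR51B4 221 and 177 against 15.8. The annotated transcripts of HBE1 overlap those of each of the other two on the same strand, so reads cannot be assigned with certainty between them. None was lower in knockout 8, where the values were 893, 1505 and 343.

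**Figure D2:**
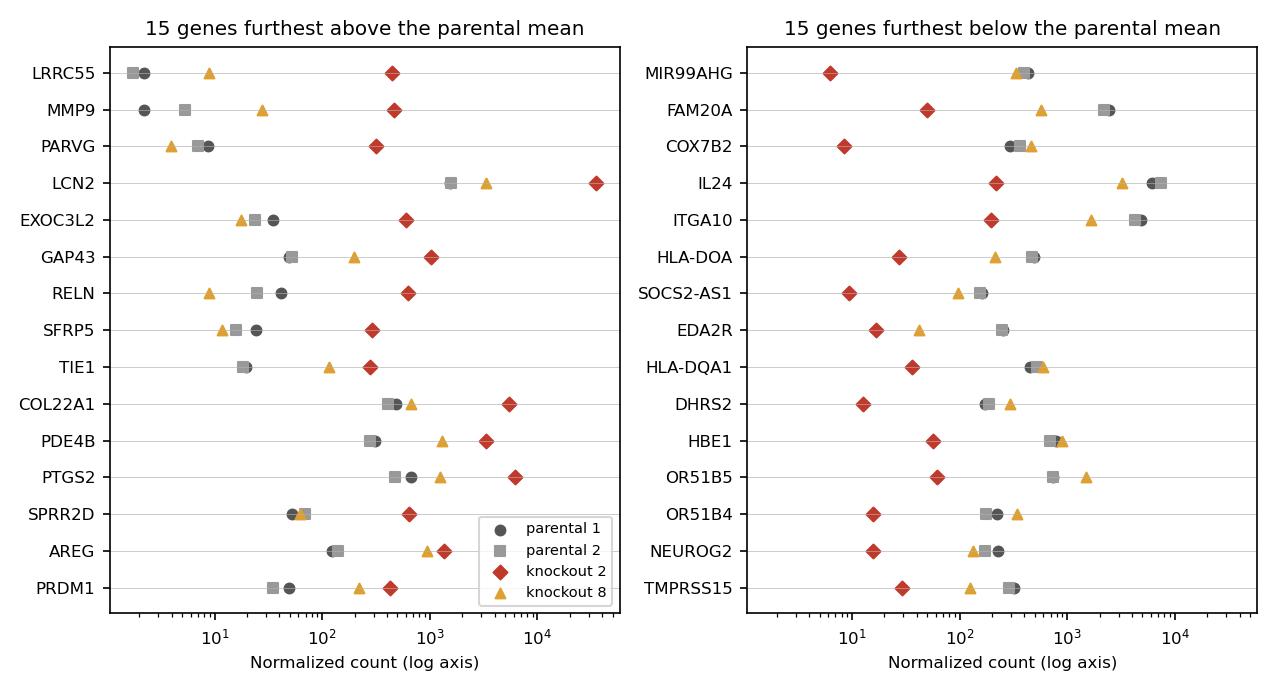
Normalized counts (horizontal log axis) of the 15 genes furthest above and the 15 furthest below the parental mean in knockout 2, with 1 point per library. In every row the red knockout 2 point lies apart from both grey parental points; the knockout 8 point lies near the parental pair for SPRR2D, MIR99AHG and HBE1 and between the pair and knockout 2 for AREG, PDE4B and FAM20A.

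The genes of MHC class II antigen presentation were lower as a group in knockout 2. Class II molecules are pairs of alpha and beta chains that present peptides to CD4+ T cells, and some melanomas make them without being immune cells. Their genes are switched on by CIITA, a co-activator that binds no DNA itself and is held at their promoters by RFX, which binds a sequence called the X box, and NF-Y, which binds the CCAAT sequence of the Y box. HLA-DM and HLA-DO help or hinder the loading of peptides, and CD74, the invariant chain, guides the new molecules through the cell.

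Because these genes share a promoter design, the 250 bases before the start of 3 of them are shown, 5' to 3' on the gene's own strand, from RefSeq on GRCh38.p14. Capitals mark the X box, given here by GNNACNGATG for HLA-DRB1 and by the longer CCNNGNNACNGATG for the other two, and each ATTGG or its reverse complement, the core of a Y box.
HLA-DRB1: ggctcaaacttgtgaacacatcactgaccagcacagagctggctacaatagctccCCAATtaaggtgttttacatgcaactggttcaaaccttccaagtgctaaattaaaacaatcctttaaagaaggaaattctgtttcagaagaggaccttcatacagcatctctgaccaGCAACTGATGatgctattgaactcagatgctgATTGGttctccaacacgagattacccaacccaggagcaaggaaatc
HLA-DMA: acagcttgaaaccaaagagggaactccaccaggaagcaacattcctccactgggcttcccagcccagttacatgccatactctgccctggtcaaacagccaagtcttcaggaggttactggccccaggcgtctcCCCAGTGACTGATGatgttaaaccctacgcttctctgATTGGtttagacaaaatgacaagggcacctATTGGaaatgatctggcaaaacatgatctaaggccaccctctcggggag
HLA-DMB: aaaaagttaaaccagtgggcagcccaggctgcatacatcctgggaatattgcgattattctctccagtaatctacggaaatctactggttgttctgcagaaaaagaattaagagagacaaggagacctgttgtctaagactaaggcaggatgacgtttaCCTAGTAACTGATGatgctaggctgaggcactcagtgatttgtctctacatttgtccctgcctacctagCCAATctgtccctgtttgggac
The 3 windows are chr6:32589849-32590098, chr6:32953098-32953347 and chr6:32941029-32941278, all on the minus strand. Both strands of the RefSeq promoter windows, 250 bases before to 50 after the start, were searched. The short X box was in 2.37% and the long one in 0.212% of all 27305 windows, and ATTGG in 35.7%, so the last is a common string. Of 14 class II genes past the filter, counted by symbol after their values were seen, 11 had a window in the table, 5 of these held the short X box (HLA-DMA, HLA-DMB, HLA-DQB1, HLA-DRB1 and HLA-DRB5) and 10 held ATTGG. A match describes letters and not a bound site, and every match of the long form is also a match of the short one.

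CIITA itself read 1543 and 1596 in the parental pair, 379 in knockout 2 and 1150 in knockout 8, a difference of -2.05 in knockout 2. HLA-DRA, the alpha chain shared by all HLA-DR molecules, read 12166 and 12216 against 2571 and, in knockout 8, 10736. The parental level was 4.74 times that of knockout 2 (interval 4.55 to 4.95). HLA-DRB1, its partner chain, read 2311 and 2553 against 534, with 2308 in knockout 8. In all 3 genes knockout 2 lay far below the other libraries, and knockout 8 lay below both parental values by much less, differing from the parental mean by -0.45 for CIITA, -0.18 for HLA-DRA and -0.07 for HLA-DRB1. HLA-DPA1 differed by -1.59, HLA-DPB1 by -1.33 and HLA-DQB1 by -1.56. The peptide-loading genes HLA-DMA and HLA-DMB differed by -1.43 and -1.85, and HLA-DOA, which restrains HLA-DM, by -4.09. HLA-DQA1, another class II chain, read 455 and 529 against 35.8, while knockout 8 had 591. Reads of HLA-DQA1 and HLA-DQA2, and of HLA-DRB1, HLA-DRB5 and HLA-DRB6, can be exchanged between near-identical copies, so single values within those families are uncertain. CD74 read 36485 and 36440.2 against 20109, a difference of -0.86 that did not reach 2-fold.

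Counted over the antigen presentation list, split into classes after the values were seen, 9 of 10 class II members past the filter were at least 2-fold lower and 0 higher, with a median difference of -1.72. The same 10 had a median of -0.14 in knockout 8 and 0.03 within the parental pair, while the medians of all 12266 genes were -0.003, -0.006 and 0.003 in the same order. Of 18 class I members, which serve the presentation of peptides to CD8+ T cells, 0 were higher and 0 lower, and their median was 0.01. B2M, the shared light chain, read 15951 and 15162 against 16195, and HLA-B 12687 and 11915 against 8913. HLA-C and HLA-E differed by -0.77 and -0.57 in knockout 2 and by -0.17 and -0.01 in knockout 8, so some class I genes were lower too, though not by 2-fold. The RFX subunits moved less than the class II genes, with differences of -0.34 for RFX5, 0.26 for RFXAP and -0.52 for RFXANK, the last lying in the chromosome 19 segment described below. CTSS, the cathepsin that trims the invariant chain, was the 1 member of the list that was higher, with 633 and 683 against 3995. The class II chain and loading genes lie near each other on chromosome 6, while CIITA is on chromosome 16 and CD74 on chromosome 5. Windows of 40 neighbouring genes that include HLA-DRA had medians between -0.13 and -0.09, and the lowest of these was also the lowest on chromosome 6.

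Inflammatory genes under NF-kB control differed in both directions. NF-kB is a family of transcription factors that answers to cytokines and danger signals and drives chemokines, cytokines and its own inhibitors. Of 33 members past the filter, 10 (30.3%) were at least 2-fold higher and 3 (9.09%) at least 2-fold lower, beside 2.54% and 1.95% of all genes. The list's median was 0.34 in knockout 2, 0.46 in knockout 8 and -0.15 within the parental pair.

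Among the higher members were 3 chemokines. CXCL8, the neutrophil attractant interleukin 8, read 12830.4 and 11148 in the parental pair, 29465 in knockout 2 and 21814 in knockout 8. CXCL1, which acts on the same receptor family, read 5370.3 and 4844 against 12487 and 6451. The monocyte attractant CCL2 read 667 and 690.3 against 1556, with a still higher 2229.7 in knockout 8. All 3 were above both parental values in both knockouts. The interleukin 1 genes were higher too, IL1A with 1839 and 1535 against 4146 and IL1B with 181 and 115 against 615; the parental values of IL1B differed from each other by -0.65. IL11, a cytokine of the IL-6 family, read 998 and 1139 against 6731 but 1302 in knockout 8. LIF, of the same family, read 7211 and 6889 against 14686. IL11 in knockout 8 was above both parental values too, 0.29 above their mean, and did not reach 2-fold. TNFAIP3, the ubiquitin-editing inhibitor A20 that ends NF-kB signalling, read 884 and 876 against 1949. MMP9 and PTGS2, described above, complete the 10.

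The 3 lower members were IL24, CCL20 and CSF2. CCL20, a chemokine for CCR6-bearing cells, read 217 and 166 against 47.4 in knockout 2, yet 526 in knockout 8. CSF2, the growth factor GM-CSF, likewise read 203 and 121 against 62.1 and then 579. For both genes the 2 knockout libraries lay on opposite sides of the parental pair.

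The NF-kB type motif GGANTTTCC was searched on both strands of the same windows. It was in 10 of 27 list members with a window (37.0%) and in 1.64% of all windows. Of the 7 members counted as higher that had a window, 3 held it (CXCL1, CXCL8 and TNFAIP3), and of the 3 lower ones 0 did. The motif was also in the windows of the chemokine genes CXCL2 and CXCL3. These differed by -0.98 and -0.44 in knockout 2 and by 0.81 and 0.75 in knockout 8. The promoters of CXCL8 and CXCL1 are shown with the motif in capitals.
CXCL8: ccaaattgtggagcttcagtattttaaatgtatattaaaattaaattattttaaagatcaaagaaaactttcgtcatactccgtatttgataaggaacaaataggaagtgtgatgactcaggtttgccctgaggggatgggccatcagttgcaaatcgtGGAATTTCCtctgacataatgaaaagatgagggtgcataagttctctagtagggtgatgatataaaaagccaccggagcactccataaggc
CXCL1: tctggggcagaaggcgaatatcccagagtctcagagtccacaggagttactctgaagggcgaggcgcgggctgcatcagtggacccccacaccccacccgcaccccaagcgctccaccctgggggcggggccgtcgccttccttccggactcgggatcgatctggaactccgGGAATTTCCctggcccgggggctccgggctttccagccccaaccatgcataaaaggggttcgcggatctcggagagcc
They lie at chr4:73740319-73740568 and chr4:73869143-73869392 on the plus strand (RefSeq, GRCh38.p14). The matched letters were the same in both.

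Interferon-stimulated genes encode antiviral proteins and are read out by the factor ISGF3 through a promoter element called the ISRE. A subset was higher in knockout 2, 6 of 53 members past the filter (11.3%, beside 2.54% of all genes), with 1 lower (1.89%, close to the 1.95% of all genes). IFIT1, which binds foreign RNA ends, read 122 and 133 against 379.9, and MX1, a GTPase that blocks viruses, 345 and 340.3 against 969. OAS2, a sensor of double-stranded RNA, read 339.9 and 353 against 883. All 3 lay above both parental values by more than these differed. ISG15, a ubiquitin-like modifier, read 132 and 122 against 303, while DDX58, the RNA sensor RIG-I, differed by 1.12 and IFI6 by 1.06. The 6 values in knockout 8 were also above both parental values, but none of them reached 2-fold there. Differences from the parental mean ran from 0.18 for IFI6 (790.1 against 663 and 732) to 0.74 for ISG15 (212 against 132 and 122). GBP2, a guanylate-binding protein, was lower, with 3871 and 3301 against 1605. The median of the whole list was 0.04, close to that of all genes, so most members did not move with the 6. The ISRE core GAAANNGAAA was in 26 of 40 list members with a window (65.0%) and in 3.65% of all windows. It was also in the windows of all 4 higher members that had one. That of IFIT1 is shown with both matches, which are on the reverse strand, in capitals.
IFIT1: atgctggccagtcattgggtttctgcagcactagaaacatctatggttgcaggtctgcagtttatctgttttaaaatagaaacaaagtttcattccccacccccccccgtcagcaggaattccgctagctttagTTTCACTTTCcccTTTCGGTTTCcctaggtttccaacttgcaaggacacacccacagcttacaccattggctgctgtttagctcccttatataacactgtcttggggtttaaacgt
It lies at chr10:89392373-89392622 on the plus strand (RefSeq, GRCh38.p14).

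**Figure D3:**
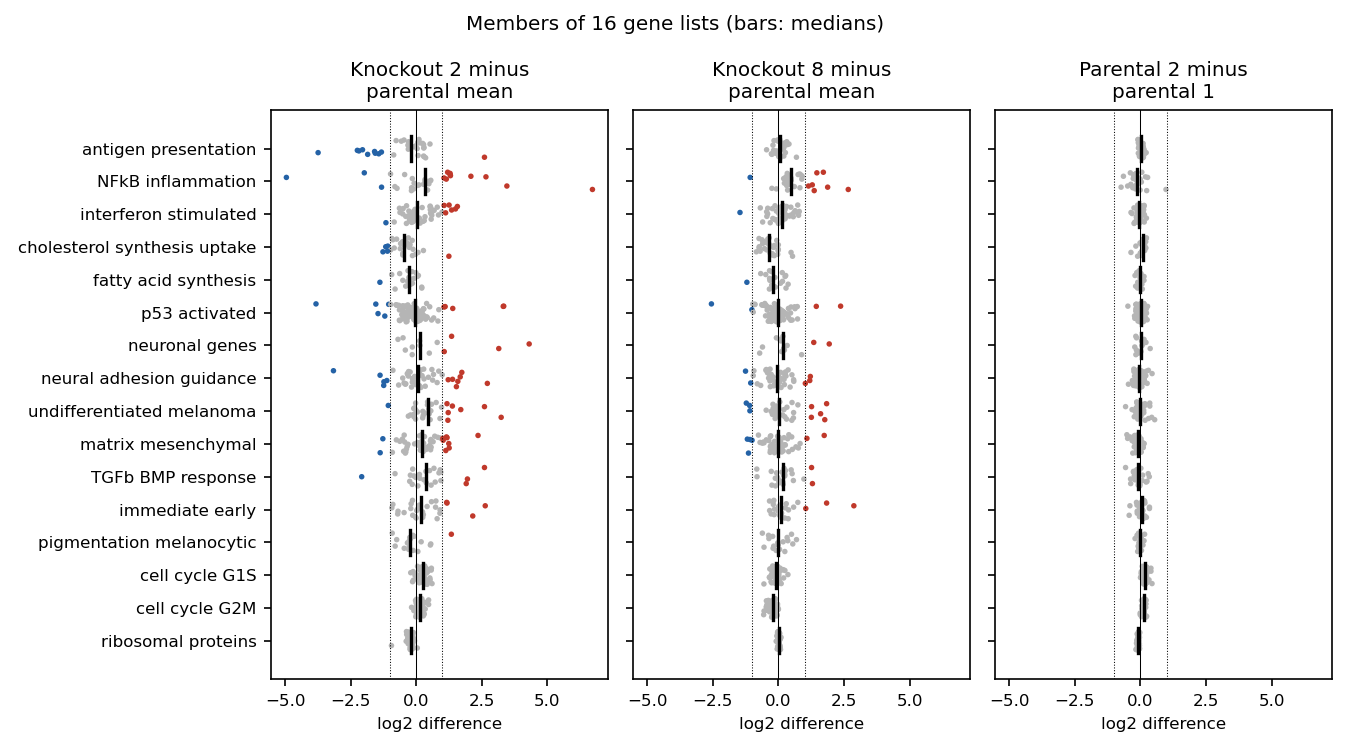
Members of 16 gene lists past the filter (1 point per gene, vertical bars for list medians, horizontal axis log2 difference) for knockout 2 minus the parental mean, knockout 8 minus the parental mean and parental 2 minus parental 1. Points beyond the dotted 2-fold limits are red or blue; the antigen presentation list has 9 points beyond the lower limit in knockout 2, and cholesterol synthesis and uptake has a median of -0.47 there and -0.35 in knockout 8.

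Genes of cholesterol synthesis and uptake were lower in small steps. These genes are controlled together by SREBP2, which INSIG1 holds back when sterols are plentiful. Of 30 members past the filter, 27 lay below both parental values (44.4% of all genes did) and 2 above both, while 4 were at least 2-fold lower and 1 at least 2-fold higher. The median was -0.47 in knockout 2, -0.35 in knockout 8 and 0.08 within the parental pair. INSIG1 read 5753 and 5928 against 2424, with 3265 in knockout 8. The synthesis enzyme MSMO1 read 2216 and 2417 against 1033 and 1395. For INSIG1 and MSMO1 both knockout libraries lay below both parental libraries. HMGCS1, an early enzyme of the pathway, differed by -0.93, and DHCR7, the last step, by -0.97, neither of them at 2-fold. TM7SF2, another synthesis enzyme, was at least 2-fold lower (-1.09). NPC2, which carries cholesterol out of lysosomes and is not an enzyme of synthesis, was higher, with 1805 and 1673 against 4118. In the related fatty acid list 1 of 20 members (5%, beside 1.95% of all genes) was at least 2-fold lower and 0 higher. The lower one was ACSS2, which makes acetyl-CoA from acetate, with 8884 and 8262 against 3280.3 and 3729 in knockout 8. Of the 20 members 15 lay below both parental values and 2 above both. The median of this list was -0.27 in knockout 2, -0.22 in knockout 8 and -0.03 within the parental pair. The sterol element TCACNCCAC was in 1 of 24 cholesterol list windows, that of SREBF2, and in 1.15% of all windows.

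Genes that p53 is known to activate differed in both directions. Of 90 members past the filter 5 (5.56%) were at least 2-fold higher and 5 (5.56%) lower, beside 2.54% and 1.95% of all genes, and 32 lay above both parental values and 50 below both. The median was -0.06 in knockout 2 and -0.03 in knockout 8. The filter bears on this balance: PRDM1 and LAPTM5 passed it only through their level in knockout 2, while GDF15, a stress cytokine with 112 and 78.9 against 24.2 and 31.3, did not pass. EDA2R, a receptor of the TNF family, was the furthest, with 252 and 249.99 in the parental pair, 16.8 in knockout 2 and 42.0 in knockout 8. BTG2, an antiproliferative co-regulator, read 587 and 527 against 190.5 and 282, and DDB2, a sensor of ultraviolet DNA damage, 2094 and 2126 against 1019 and 1138. In these 3 genes both knockout libraries lay below both parental libraries. Smaller differences in the same direction were found in both knockouts for several well-known targets, named after their values were seen. SESN1, a stress-induced regulator of growth, differed by -0.77 in knockout 2 and -0.63 in knockout 8, and ZMAT3, an RNA-binding protein, by -0.75 and -0.61. The nuclease gene AEN differed by -0.70 and -0.46, RPS27L by -0.66 and -0.54, and RRM2B, a ribonucleotide reductase subunit, by -0.55 and -0.43. Other members of the list differed upward in both knockouts. PMAIP1 differed by 0.51 in knockout 2 and 0.62 in knockout 8, TSKU by 0.59 and 0.53, and SULF2 by 0.67 and 0.40. CYFIP2 and PRKX differed by -1.46 and -1.20 in knockout 2 but by -0.07 and -0.15 in knockout 8. The higher members were PRDM1, LAPTM5, PLK2, FAS and LIF. PRDM1, a repressor best known from plasma cells, read 49.3 and 35.1 against 429, with 220 in knockout 8. The death receptor FAS read 488 and 499.97 against 1062, with 816 in knockout 8. CDKN1A read 3561 and 3889 against 4898 in knockout 2 and 2603 in knockout 8, so the 2 knockout libraries lay on opposite sides of the parental pair, neither by 2-fold. MDM2 read 4359 and 4775 against 4325, a difference of -0.08.

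Genes of the undifferentiated melanoma state and of the matrix were higher in part. Of 32 undifferentiated-state members past the filter, 7 (21.9%) were higher and 1 (3.13%) lower, beside the same 2.54% and 1.95%, and the median was 0.43 against 0.04 in knockout 8. S100A2, a calcium-binding protein, read 269.7 and 363 against 2961. PDGFRA, the receptor for PDGFA, read 355 and 284 against 1033, so ligand and receptor were both higher. The 2 matricellular genes CTGF and CYR61, which are often induced together by YAP, parted: CTGF differed by 1.38 and CYR61 by -1.07. The first is thus higher and the second lower in knockout 2. Of 51 matrix genes 8 (15.7%) were higher and 2 (3.92%) lower, beside 2.54% and 1.95% of all genes, with VCAN, a large proteoglycan, at 298 and 255 against 1417. LAMC1, a laminin chain, read 24192 and 23414 against 51994, and COL6A1 7591 and 7393 against 16912. SRPX and COL12A1 were the lower ones, at -1.37 and -1.27. In the TGF-beta list 3 of 25 were higher (12.0%, beside 2.54% of all genes), among them LTBP2, which binds latent TGF-beta in the matrix, and PMEPA1, a feedback inhibitor. PMEPA1 read 10525 and 8121 against 34630.2 and overlaps the non-coding NKILA on the opposite strand. FST, the activin-binding follistatin, was the 1 lower member, with 11276 and 14239.6 against 2998.

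Genes of neurons and of axon guidance were also represented. Of 13 neuronal genes past the filter 4 were higher and 0 lower, but 25 of the 38 in the table did not pass, and a gene low in the parental pair can pass only if it is high in knockout 2, as GAP43 did. GAP43, a growth cone protein, read 49.3 and 52.6 against 1026, and NPTX2, a secreted synaptic pentraxin, 149 and 193 against 1510.2. In knockout 8 GAP43 was 198, above the parental pair, and NPTX2 was 195, level with it. SNAP25, of the vesicle fusion machinery, and GRIK2, a glutamate receptor subunit, differed by 1.35 and 1.07. In the neural adhesion list 7 of 46 (15.2%) were higher and 5 (10.9%) lower, beside 2.54% and 1.95% of all genes, the lower ones being SEMA3E, NRP2, CNTN3, NTN4 and ROBO2. L1CAM, an adhesion molecule of growing axons, read 382 and 455 against 2734. SEMA3E, a secreted guidance cue, was lower, going from 361 and 368 to 39.991, and NRP2, a semaphorin co-receptor, from 5272 and 4834 to 1941. MCAM, a melanoma adhesion molecule, read 11817 and 12262 against 34799 and lies in the chromosome 11 segment described below.

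Immediate-early genes, which respond to growth signals within minutes, had 4 of 28 (14.3%) higher and 0 lower, beside 2.54% and 1.95% of all genes. EGR2 read 195 and 147 against 1056, with 1253 in knockout 8, and JUN, a subunit of AP-1, 421 and 474 against 1008 and 1601. ARC, best known from neurons, passed the filter only through knockout 2 and read 48.2 and 54.4 against 232 but 55.7 in knockout 8. Of 23 MAP kinase output genes 3 (13.0%) were higher and 0 lower, beside 2.54% and 1.95% of all genes. The 3 were the EGF receptor ligands AREG and HBEGF and the cytokine LIF, which is also in the p53 and NF-kB lists. Of the 23 genes 12 lay above both parental values and 10 below both, SPRY1 furthest down at -0.96. In the YAP list RBMS3 (-2.41) and MYOF (-1.53) were lower beside CYR61, while IGFBP3 and CTGF were higher. Of its 29 members 2 (6.90%) were thus higher and 3 (10.3%) lower, beside 2.54% and 1.95% of all genes. Redox genes had ABCC3 and HMOX1, which degrades haem, higher at 1.34 and 1.12, and the steroid-metabolising AKR1C2 lower at -2.02. These were 2 (8%) and 1 (4%) of 25 members, beside 2.54% and 1.95% of all genes. Of 39 members of the hypoxia list 1 (2.56%) was higher and 1 (2.56%) lower, near the 2.54% and 1.95% of all genes. The lower one was the glucose transporter SLC2A3, with 2708 and 2160.4 against 587. The higher one was the hormone STC1, with 1220.3 and 1187 against 3978. The list also holds CA9 and ANGPTL4, which differed at least 2-fold within the parental pair, and its median difference between these was -0.15.

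In some lists no member past the filter reached 2-fold. These were 46 genes of the G2 and M phases, 50 of the G1 and S phases, 39 ribosomal protein genes, 39 genes of the ATF4 stress response and 13 cancer-testis genes, the last being what the filter left of 38 in the table. With a mean of at least 10 in its place, the cancer-testis median went from -0.05 to -0.32. GAGE1, a germline antigen under the filter, read 45.0 and 63.2 against 2.10, with 1.95 in knockout 8, and SPANXB1 read 31.8 and 36.0 against 0, with 57.6. The cell cycle medians were 0.13 for G2 and M and 0.26 for G1 and S, but parental 2 already stood above parental 1 by 0.14 and 0.17 in the same genes. Ribosomal protein genes were lower by small and even steps: 38 of 39 lay below both parental values (44.4% of all genes did) and 0 above both. Their median was -0.21 in knockout 2, 0.02 in knockout 8 and -0.08 within the parental pair. RPS15 was the furthest, from 8897 and 8655 to 4560.0, and it lies in the chromosome 19 segment. Of 42 nuclear genes of the respiratory chain only NDUFS7 was counted, as lower (-1.005), and it lies in that segment as well. This 1 gene is 2.38% of that list, near the 1.95% of all genes.

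Knockout library 8 showed fewer large differences, 99 genes (0.807%) at least 2-fold higher and 130 (1.06%) at least 2-fold lower. The filter took its mean with knockout 2 and without knockout 8, so a gene high only in knockout 8 could be missed. For knockout 8 the 2-fold limit alone was used, without the condition on the gap between the parental libraries. Its counts and the shares of them given below therefore depend in part on these choices. Both comparisons share the parental pair, so overlap between them is not independent. Of the 311 genes higher in knockout 2, 62 were also at least 2-fold higher in knockout 8, which is 19.9% of the former and 62.6% of the latter's 99. Of the 239 lower genes 40 were shared, 16.7% and 30.8% of the respective lists. When each knockout library was set against a different parental library, the shared counts were 60 and 59 higher and 34 and 39 lower in the 2 possible arrangements.

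The shared genes furthest in both libraries included AREG, MMP9, EGR2 and PRDM1, given above. COL5A3, a fibrillar collagen chain, read 102 and 131 in the parental pair against 842 and 758 in the knockouts. TIE1, a receptor of endothelial cells, read 19.7 and 18.4 against 276 and 115. Other endothelial markers went either way or were near 0. KDR, with 411 and 532 against 742 and 611, was above both parental values in both knockouts. So were ESAM, PECAM1 (7.67 and 6.14 against 17.9 and 19.5) and, by little, VWF. EMCN and ERG were lower, with 0 in both knockouts. CDH5 and CLDN5 had 0 reads in the parental pair and knockout 2 and 0.977 normalized counts, 1 read, in knockout 8. ACPP, prostatic acid phosphatase, read 369 and 322 against 1705 and 1772. In COL5A3, TIE1 and ACPP both knockout libraries lay above both parental libraries. Lower in both were EDA2R, FAM20A and RBMS3, and BOC, a co-receptor of hedgehog signalling, which read 2105 and 1869 against 425 and 517. KRT81, a hair keratin, read 162 and 197 against 37.9 and 7.81. The kinase gene PAK6 read 282 and 324 against 57.9 and 89.9.

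For 94 of the higher and 87 of the lower genes, knockout 8 lay within 0.3 of the parental mean. IL11, NPTX2, ARC and the class II genes HLA-DQA1, HLA-DQA2 and HLA-DRB5 were among them. So was SPRR2D, a protein of the cornified cell envelope, with 52.6 and 69.3 in the parental pair, 638 in knockout 2 and 62.5 in knockout 8. POU2F2, the B cell transcription factor OCT2, read 137 and 136 against 842 and 126. IQGAP2, a scaffold of the cytoskeleton, read 479 and 496 against 1816 and 509. In SPRR2D, POU2F2 and IQGAP2 knockout 2 lay far above the other 3 libraries, although the parental values of SPRR2D were 0.39 apart. On the lower side ZP4, an egg coat protein, read 618 and 576 against 64.2 and 583, and DNAH9, a ciliary dynein, 970.3 and 912 against 186 and 825.

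Opposite directions were found for 15 genes, at least 2-fold from the parental mean in both knockout libraries, of which 11 were higher in knockout 2. PXDN, a peroxidase that crosslinks collagen IV, showed the widest gap, with 946 and 829 in the parental pair, 6014 in knockout 2 and 64.5 in knockout 8. RELN, the extracellular guide of migrating neurons, read 41.7 and 24.6 against 623 and 8.79. PCSK1N, an inhibitor of prohormone convertase, read 137 and 112 against 568 and 17.6. For these genes a mean over the 2 knockout libraries would describe neither. TSHZ2, a zinc finger factor, read 259.9 and 225 against 828 and 41.0, and SEMA3G, a secreted semaphorin, 458 and 434 against 2525 and 145. The 4 genes lower in knockout 2 and higher in knockout 8 were CCL20, CSF2, OR51B5 and the axon guidance receptor ROBO2, with 172 and 139 against 70.5 and 356.

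**Figure D4:**
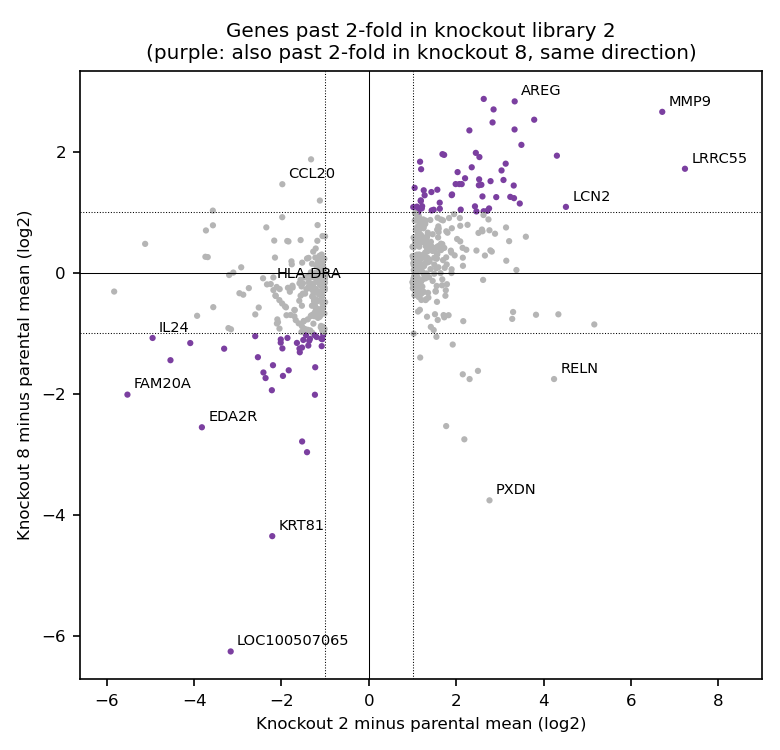
Difference from the parental mean in knockout 2 (horizontal axis) and knockout 8 (vertical axis), both log2, for the 550 genes past 2-fold in knockout 2. The 62 higher and 40 lower genes in purple are past 2-fold in both; PXDN and RELN lie in the lower right, higher in knockout 2 and lower in knockout 8.

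Differences were not spread evenly over the genome. For 11669 genes with 1 annotated locus (GENCODE 29, GRCh38), the median difference of 40 neighbouring genes was taken in steps of 10, giving 1087 windows. The largest window median within the parental pair was 0.079 in size, and 44 windows had a median of at least 0.3 in size in knockout 2. They joined into 3 segments.

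The longest was on the short arm of chromosome 19, from 301444 to 22091480, where 390 genes had a median difference of -0.48. There 334 of them (85.6%) lay below both parental values, 35 were at least 2-fold lower and 8 higher, and window medians ran from -0.96 to -0.30. The median of the same genes was -0.06 in knockout 8. Besides RPS15, NDUFS7 and RFXANK, the segment holds C3, the central complement protein, which was among its 8 higher genes with 3955 and 4457 in the parental pair, 28895 in knockout 2 and 5439 in knockout 8. COL5A3 is another of the 8. On chromosome 11, from 112961247 to 134378341, 100 genes had a median of 0.35, with 80 above both parental values, 6 at least 2-fold higher and 2 lower. The 6 were NTM, ADAMTS15, MCAM, USP2, FLI1 and FXYD6, and the 2 were NNMT and VWA5A. NTM, a neural adhesion molecule, read 519.7 and 642 against 4285, and the median of the segment was -0.06 in knockout 8. The third segment, on chromosome 19 from 50505998 to 54131719, had 50 genes with a median of 0.30 in knockout 2 and 0.19 in knockout 8. It held 4 genes at least 2-fold higher, CACNG7, ZNF702P, ZNF528 and CLEC11A. In all, 18 of the higher and 37 of the lower genes lay in these segments, and without them 293 and 202 remained. Expression alone does not measure DNA copies, and copy number was not tested.

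**Figure D5:**
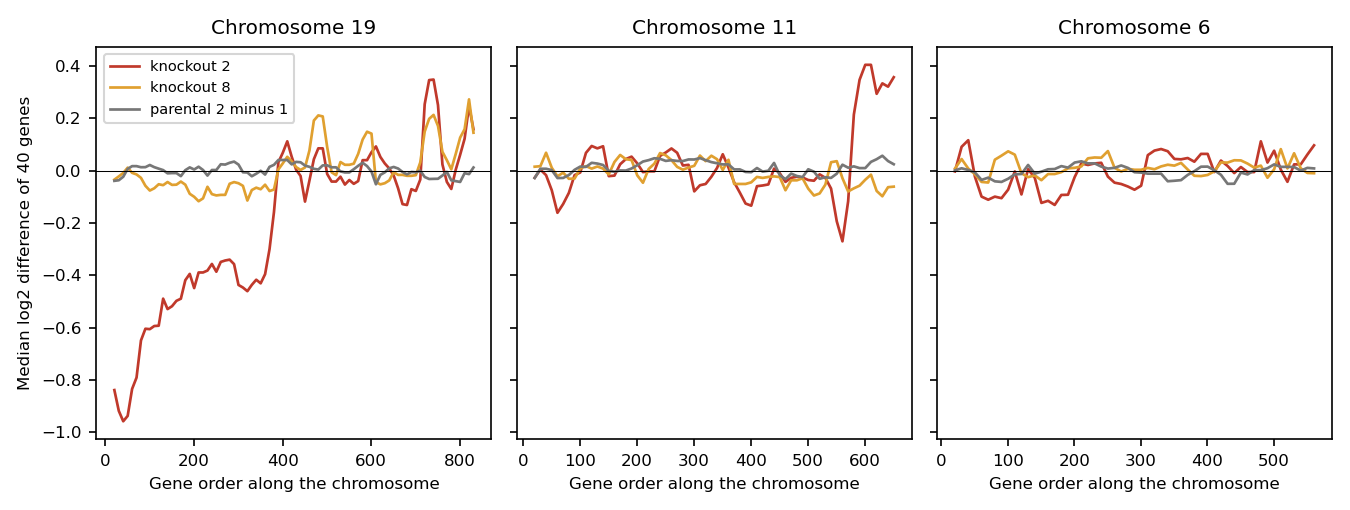
Median log2 difference of 40 neighbouring genes along chromosomes 19, 11 and 6, by gene order, for knockout 2 and knockout 8 against the parental mean and for parental 2 minus parental 1. On chromosome 19 the knockout 2 line starts near its lowest value of -0.96 and returns to about 0 after the first 390 genes, and on chromosome 6, which carries the class II genes, it stays between -0.13 and 0.12.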

How the data were processed

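The deposited table gives 1 normalized signal per gene and library. The authors obtained it from gene read counts and a size factor, since every deposited value was a whole-number multiple of 1 step in its library within 0.001 (100% of values), and this returned whole reads. The size factors were 0.912 and 1.14 for the parental pair, 0.950 for knockout 2 and 1.02 for knockout 8; they presume that most genes are unchanged. The submitters' processing notes name STAR, Picard, HTSeq, DESeq2, deepTools and build hg38. Versions, annotation, strandedness of counting and handling of multi-mapped reads were not given in the sources used here, so near-identical or overlapping genes are uncertain. Libraries were directional and poly(A)-selected, per the labels' protocols. The numbers 2 and 8 of the knockout columns cannot be matched to the labelled replicates 1 and 2, and both columns were treated only as knockout libraries.

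Differences were taken on log2(normalized count + 1), with a mean of at least 100 over the 3 libraries compared and a 2-fold limit. No test was run, since the comparison has 1 knockout library. Counting standard errors and exact 95% binomial intervals came from recovered reads and cover counting error only, because PCR copies of a molecule were not marked by identifiers. Python 3.11.15, numpy 2.4.6, pandas 2.3.3, scipy 1.17.1 and edgeR 4.0.16 (for TMM factors only) were used, and the scripts were tested on simulated data. The comparison, the 27 gene lists (1042 of 1050 entries in the table) and the motifs were chosen with earlier results of these data known. The rule for named genes took the 15 furthest in each direction, up to 4 members per list past 2-fold (otherwise the furthest), CDKN1A and MDM2, the 8 furthest in each direction that both knockout libraries shared, the 8 furthest where knockout 8 lay within 0.3 of the parental mean and the 6 widest opposite pairs; every other gene was named after its values were seen. The level of the targeted gene, and those of some genes that the rule names, are not reported here.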

Additional observations from a re-analysis of the deposited data

How the results depend on the processing

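The counts depend mainly on the filter and the fold limit. With a mean of at least 10 in place of 100, 723 genes were higher and 512 lower in knockout 2, and 176 and 106 in both knockout libraries. A mean of at least 500 gave 141 and 143, with 25 and 22 shared. A 1.5-fold limit gave 671 and 735, with 168 and 155 shared, and a 3-fold limit 121 and 81, with 19 and 10 shared. Each other setting moved these 4 counts by less than 1.5 times: a pseudocount of 0.1 or 10, equal totals, TMM factors, leaving out the segments, other parental references, and leaving out a parental library, which gave 300 to 315 higher, 225 to 262 lower, 63 shared higher and 36 to 47 shared lower. For 58 named genes 348 values were recomputed and all stayed on the same side of 2-fold. These were the furthest genes of the naming rule with CDKN1A and MDM2, all well away from the limit, so hardly any could cross it. Named genes close to 2-fold, such as NDUFS7 (-1.005), IFI6 (1.06) and TM7SF2 (-1.09), were not among them, and their calls are less secure. Of 207 list medians over 23 lists, 190 moved by at most 0.05 or by at most the list's own median difference within the parental pair, and 17 by more; the interferon median became -0.05 with a mean of at least 500. No paired analysis was possible because 1 knockout library was compared and the knockout columns carry no replicate number of the labels. With 1 knockout library, no setting shows how far another culture or clone of the knockout would differ, and reads limit mainly the genes with few parental or few knockout reads.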
